A study of Mus musculus with 32 samples.

Results

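Autophagy and lysosome genes, 33 in all, were followed in mouse skeletal muscle that had lost the receptor Acvr1b, the receptor Tgfbr1 or both in its myofibres. The genes were picked by symbol from a table of 55487 genes. All 33 were found, and all 33 passed the filter on low counts in both muscles, where 17536 genes were tested in gastrocnemius and 18143 in soleus. Acvr1b is a type I receptor for activins and myostatin, and Tgfbr1 is the type I receptor for TGF-beta. Their loss was induced with tamoxifen in mice 6 weeks old, and 2 muscles were taken 3 months later: the fast gastrocnemius medialis and the slower soleus. The 4 genotypes were control, Acvr1b KO, Tgfbr1 KO and Acvr1b and Tgfbr1 KO, called double KO here, with 4 mice each and 1 library per muscle and mouse. The labels give the knockout as specific to myofibres, and they name neither the Cre driver nor the alleles that the control mice carried. Each library was made from a whole muscle, which also holds blood vessels, connective tissue, nerve, satellite cells and immune cells. In such bulk samples fewer cells of a type and less RNA per cell cannot be told apart.

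Autophagy encloses part of the cytoplasm in a double membrane and delivers it to the lysosome, where cathepsins and other hydrolases break it down. The ULK1 complex starts the process, the Beclin PI3-kinase complex marks the membrane with the lipid PI3P, lipid carriers and PI3P-binding proteins extend it, and a ubiquitin-like conjugation system fixes ATG8 proteins to it. Cargo receptors bind ATG8 proteins on one side and ubiquitinated cargo on the other. In muscle the pathway removes worn proteins and mitochondria, and FoxO transcription factors and the TFEB family are known to drive many of its genes.

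Library totals ran from 16535498 to 54456977 counts. Myh4, a fast myosin, averaged 71701 CPM (counts scaled to library size and composition) in control gastrocnemius and 1987 in control soleus. Myh7, the slow myosin, averaged 749 and 9153 CPM in the same groups. Acvr1b averaged 97.6 CPM in control and 23.6 in Acvr1b KO gastrocnemius, with no overlap, and 43.9 against 13.6 CPM in soleus. Tgfbr1 averaged 26.2 CPM in control gastrocnemius, 27.1 in the libraries labelled Tgfbr1 KO and 44.3 in those labelled double KO. Counts were summed over all exons and the labels do not say which exons were removed, so this level does not check the Tgfbr1 label. In the labels the double KO mice and the control mice each carry animal numbers in a range of their own, while those of the single knockouts overlap. The genotype and any difference that goes with such a range cannot be told apart. Standing apart were 5 libraries: gastrocnemius control 1, with the highest mitochondrial share of its muscle (25.99%), gastrocnemius Tgfbr1 KO 1, with the lowest total, soleus Acvr1b KO 1 and both muscles of double KO mouse 1, which deviated most from their groups over all genes in soleus and over the members in gastrocnemius.

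Promoters of members were searched for the letters that the TFEB family and FoxO factors are known to prefer. RefSeq windows on GRCm38.p6, from 250 bases before to 50 after the start, were given for 26 members in 30 entries, and both strands were read. The E-box CACGTG occurred in 7 of the 30 entries (23.3%), 1 each for Lamp1, Ctsd, Ctsl, Bnip3, Atg5, Atg7 and Atg14, and in 7.15% of all 32851 windows. The longer TCACGTGA, which contains it, was present in Ctsd alone and in 0.974% of all windows. The forkhead letters GTAAACA, or TGTTTAC on the other strand, were in 0 member windows and 3.65% of all. Members with no matching entry were Rb1cc1, Map1lc3a, Atg12, Atg16l1, Becn1, Bnip3l and Ctsb. Lamp1 is shown because it held 4 matches, which start 61, 45, 28 and 15 bases before its start. The window is chr8:13158911-13159160 on the plus strand, with CACGTG in capitals.
Lamp1: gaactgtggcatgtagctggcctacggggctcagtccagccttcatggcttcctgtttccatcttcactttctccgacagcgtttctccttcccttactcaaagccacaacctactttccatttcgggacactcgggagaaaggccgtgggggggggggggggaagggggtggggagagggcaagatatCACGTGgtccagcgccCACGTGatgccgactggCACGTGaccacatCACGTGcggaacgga

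Sites of called or named members follow in windows of 30 bases, read 5′ to 3′ on the gene's strand with the match in capitals, for Bnip3 (chr7:138909597-138909626, minus strand, 108 bases before the start), Ctsl (chr13:64370739-64370768, minus, 236 bases), Atg7 (chr6:114670952-114670981, plus, 132 bases) and Ctsd (chr7:142387908-142387937, minus, 98 bases, with the longer TCACGTGA). The sites shown for Atg7, Ctsl and Ctsd lie inside the annotated genes (chr6:114643097-114860614, chr13:64359337-64370890 and chr7:142375911-142388038), and that for Bnip3 lies outside its gene.
Bnip3: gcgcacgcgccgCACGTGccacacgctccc
Ctsl: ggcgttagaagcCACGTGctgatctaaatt
Atg7: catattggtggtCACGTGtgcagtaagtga
Ctsd: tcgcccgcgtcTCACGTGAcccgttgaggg

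In control muscle the members covered a 218-fold range of levels in gastrocnemius and a 234-fold range in soleus, in CPM per kilobase of exon. That scale sets genes of different length side by side. Its exon length is the deposited one for the gene and not that of the transcript expressed, so ranks depend partly on annotation. Pink1, a kinase that marks damaged mitochondria, stood highest in both muscles, at 199 ± 25 CPM per kilobase in gastrocnemius and 278 ± 17 in soleus (SD, n = 4 each). Next in gastrocnemius came the cargo receptor Sqstm1 (p62) at 168 ± 13 and Lamp1, an abundant protein of the lysosomal membrane, at 155.3 ± 5.6. Lamp1 was second in soleus, at 167.8 ± 1.2 CPM per kilobase. The lowest member in both was Tfe3, a transcription factor of the TFEB family, at 0.91 ± 0.12 in gastrocnemius and 1.188 ± 0.087 in soleus. Atg7, the E1-like enzyme of ATG8 and ATG12 conjugation, was next lowest at 1.02 ± 0.17 and 1.269 ± 0.050. Along this order 26 of 32 neighbouring pairs overlapped between libraries in gastrocnemius and 23 of 32 in soleus, so most steps in it were not larger than the spread between mice. The median member stood at 11.8 CPM per kilobase in gastrocnemius and 12 in soleus.

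Control soleus and control gastrocnemius differed in 14 members, 7 higher and 7 lower in soleus, by edgeR's quasi-likelihood test with Benjamini-Hochberg adjusted p under 0.05. That is 42.4% of the members, and 40.4% of the 18726 genes tested over both muscles were called (20.5% higher and 20% lower), so the share was near the background. The members' median log2 difference was 0.04, against 0.07 over all genes. The ULK1 complex divided, with Ulk2 (log2 difference -0.82, SE 0.14), Rb1cc1 (-0.78, SE 0.17) and Ulk1 (-0.52, SE 0.17) lower and its subunit Atg13 (0.60, SE 0.10) higher in soleus. Adjusted p in edgeR was 2.04e-05, 0.000483, 0.0139 and 2.14e-05 in that order.

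**Figure D1:**
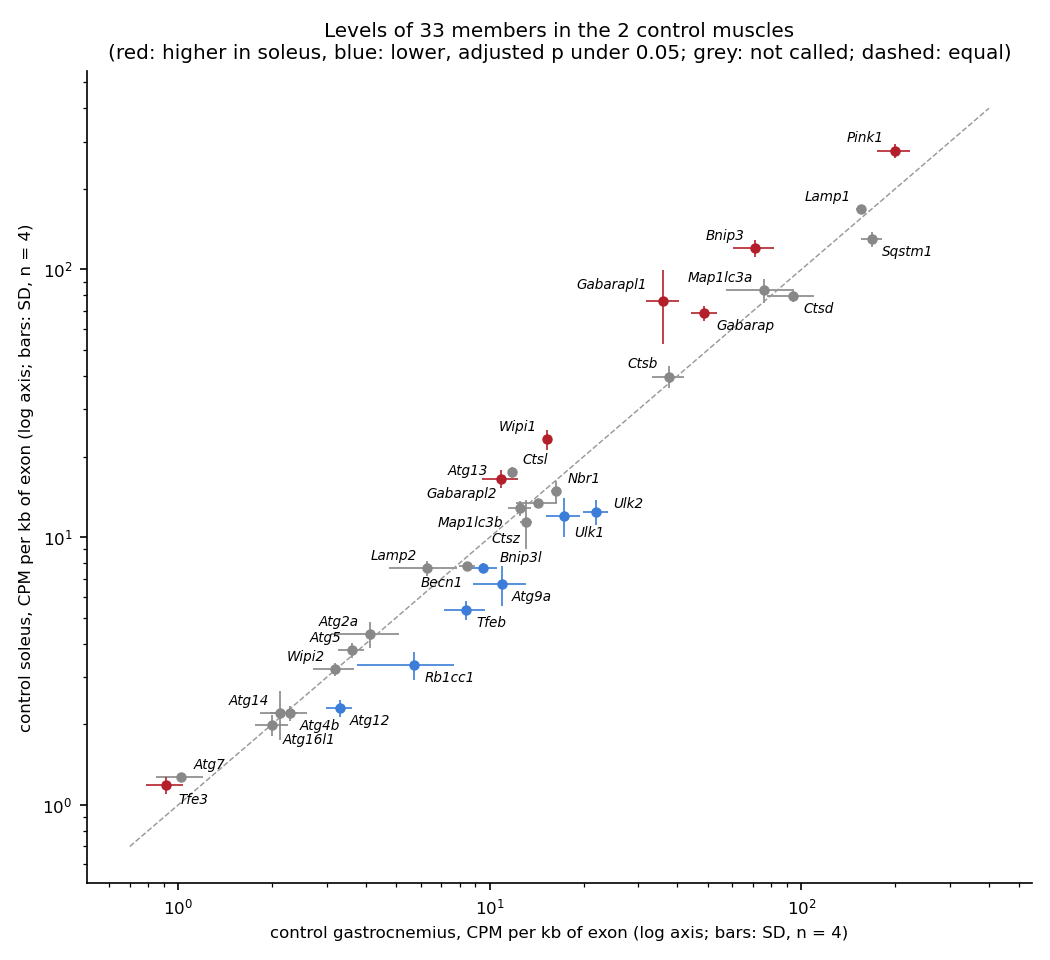
Mean level of each member in control gastrocnemius (x axis) and control soleus (y axis), in CPM per kilobase of exon on log axes, with bars for the SD of 4 libraries. The 7 red genes, such as Gabarapl1 and Bnip3, lie above the dashed line of equal levels, and the 7 blue genes, such as Ulk2 and Tfeb, lie below it.

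Gabarapl1, an ATG8 protein, stood at 53.8, 79.9, 108 and 63.3 CPM per kilobase in the 4 control soleus libraries and at 30.5, 39.6, 39.8 and 34.5 in the 4 control gastrocnemius libraries. Every soleus library was above every gastrocnemius library, with the soleus values spread over a wide range. The log2 difference was 1.08 (SE 0.28, edgeR adjusted p = 0.00261), and its relative Gabarap differed by 0.49 (SE 0.069, edgeR adjusted p = 1.25e-06). For the mitophagy receptor Bnip3 the soleus values were 118, 132, 120 and 111 CPM per kilobase and the gastrocnemius values 86, 65.5, 69.9 and 62.5. The groups again did not overlap (log2 difference 0.76, SE 0.12, edgeR adjusted p = 1.4e-05). Pink1 (0.48) was also higher in soleus, while Bnip3l, a near relative of Bnip3, was lower (-0.31), so the 3 mitophagy genes did not move one way. The transcription factor Tfeb was lower in soleus, at 5.64, 5.42, 4.72 and 5.57 against 6.51, 9.23, 9.01 and 8.78 CPM per kilobase, and Tfe3 was higher. Their log2 differences were -0.65 (SE 0.12) and 0.38 (SE 0.099), with edgeR adjusted p of 6.16e-05 and 0.00266. Also higher in soleus was Wipi1 (0.61), which binds PI3P, and lower were Atg9a (-0.71), a lipid scramblase of the growing membrane, and Atg12 (-0.52), a ubiquitin-like protein.

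None of the 4 cathepsins, the cargo receptors, the Beclin complex members or the lysosomal membrane proteins passed the threshold between control muscles. The gastrocnemius and soleus of a mouse carry the same animal number in the labels. With the mouse as a block, edgeR also called Atg7 (0.32, adjusted p = 0.0422) and the cathepsin Ctsl (0.57, adjusted p = 0.00642), and no call was lost. Without soleus control 3 the Ulk1 call was lost (-0.42, edgeR adjusted p = 0.069). Without gastrocnemius control 1 the ATG8 gene Gabarapl2 was called lower in soleus (-0.22, edgeR adjusted p = 0.0136). With all libraries that stand apart left out, 20 members were called (60.6%, beside 45.6% of all genes), the added ones being Gabarapl2, Sqstm1 (-0.43), Ctsd (-0.35), Lamp1 (0.13), Lamp2 (0.45) and Ctsl (0.57). These added calls are a description only, since gastrocnemius double KO 1 was set apart by its deviation over the members.

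Loss of Acvr1b alone changed no member in gastrocnemius, where 0.0285% of all genes were called, and no member in soleus, where 0.022% were. The libraries labelled Tgfbr1 KO also showed no called member, beside 0.171% of all genes in gastrocnemius and 0.0496% in soleus. All 4 counts of 0 are from edgeR; 0 members had an unadjusted p under 0.05 in each, and DESeq2 also called 0. In gastrocnemius the median size of the log2 difference was 0.05 over the members and 0.10 over all genes in Acvr1b KO, and 0.08 and 0.11 in Tgfbr1 KO.

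Gabarapl1 was the lowest-lying member against control in all 4 of these comparisons. In gastrocnemius it stood at 57.1, 72.5, 74.1 and 62.8 CPM in control, at 51.1, 52.5, 55.4 and 56.1 in Acvr1b KO and at 43.9, 53.8, 52.3 and 42.1 in Tgfbr1 KO. Neither knockout overlapped the control libraries, which was so for 2.86% and 3.66% of all genes, and both comparisons use the same controls. The log2 differences were -0.31 (SE 0.23, edgeR adjusted p = 1) and -0.47 (SE 0.23, edgeR adjusted p = 0.84). With gastrocnemius control 1, gastrocnemius Tgfbr1 KO 1 and the other libraries that stand apart left out, edgeR called Gabarapl1 lower in Tgfbr1 KO (-0.50, adjusted p = 0.0426), the only member it called in that comparison. This gained call is a description only.

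Loss of both receptors changed 8 members in gastrocnemius, 5 higher and 3 lower than control, by edgeR's test. Of all genes 20.9% were called (11.4% higher and 9.59% lower), and 24.2% of the members were, so the share of members was near the background. The median log2 difference was 0.02 over the members and 0.00 over all genes, and the median of its size was 0.17 and 0.23. Atg12, Atg7, Sqstm1, Ctsl and Ctsb rose, while Bnip3, Ulk1 and Becn1 fell. Groups did not overlap for 6 of these 8, all but Ulk1 and Ctsb. These 8 were picked by a test on the same libraries, so their count cannot be weighed against the 21.4% of all genes without overlap.

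**Figure D2:**
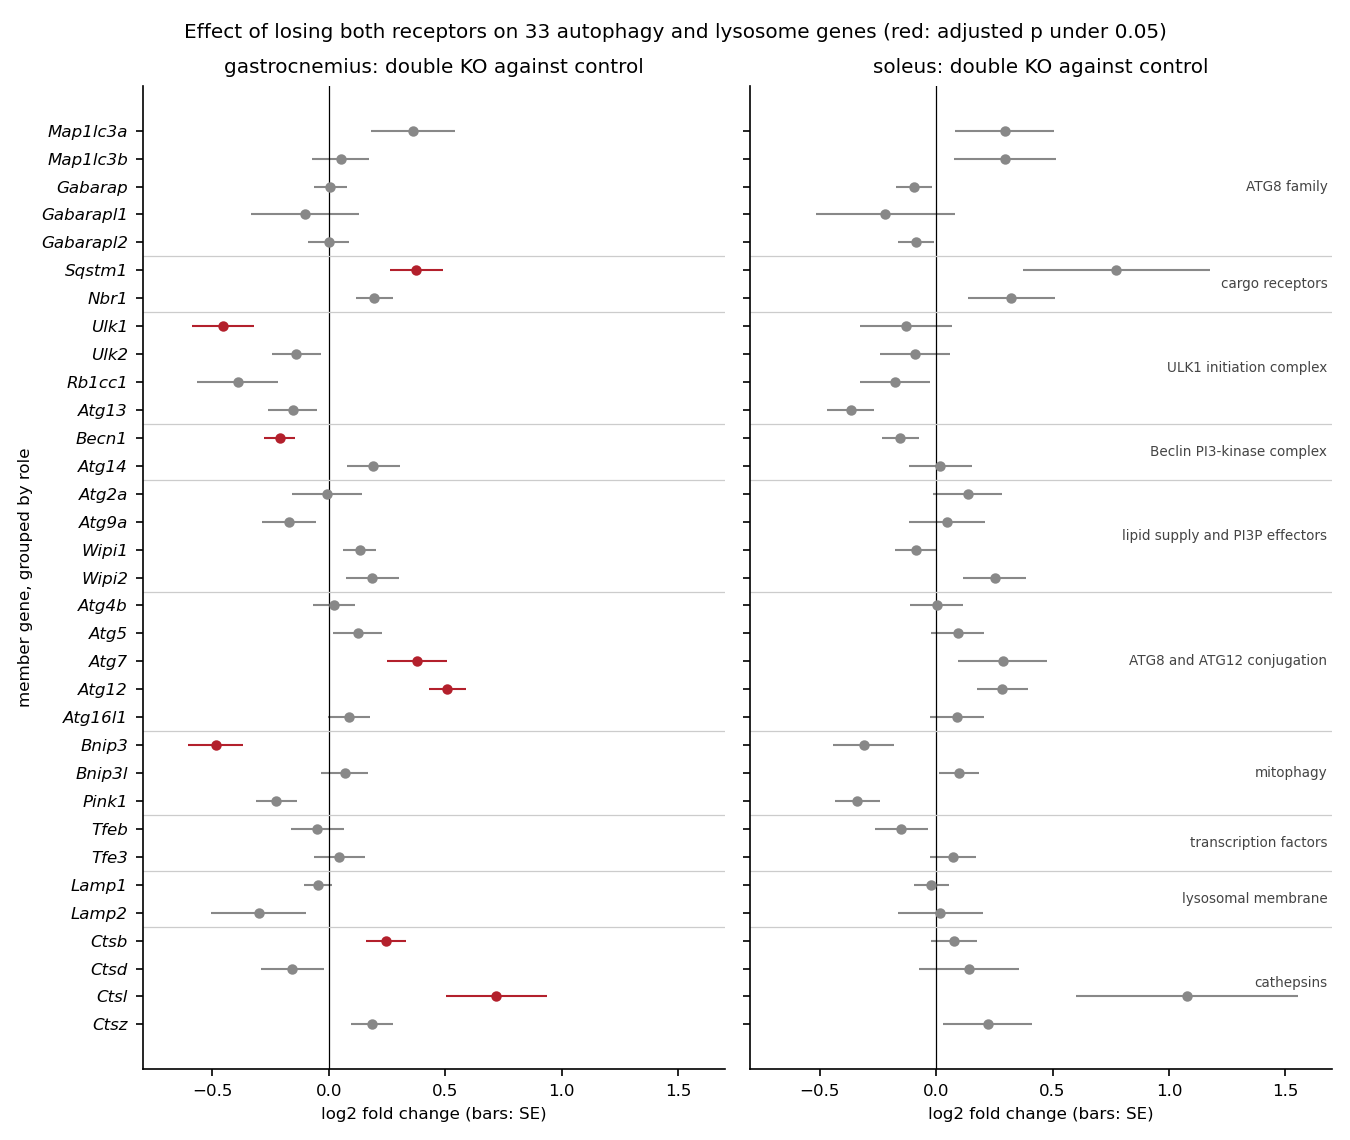
Log2 fold change of each member in double KO against control, with bars for the SE, in gastrocnemius (left) and soleus (right), with the genes grouped by role. The 8 red points in gastrocnemius are the called members, and no member is red in soleus, where the bars of Ctsl and Sqstm1 are widest.

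In the conjugation system 2 of 5 members rose. Atg12, the ubiquitin-like protein that is joined to Atg5, stood at 34.7, 30.9, 34 and 33.5 CPM in the double KO libraries and at 27, 21.8, 23.4 and 21.3 in the controls. All double KO libraries lay above all controls, and they also lay above all Acvr1b KO libraries (21.3 to 24.3) and all Tgfbr1 KO libraries (23.5 to 25.4). The rise was 42.4% (log2 fold change 0.51, SE 0.080, edgeR adjusted p = 0.000283), and it passed the threshold under all 14 alternatives. Atg7 stood at 10.1, 7.86, 7.96 and 8.09 CPM against 5.03, 7.35, 7.24 and 6.55. The groups did not overlap, with double KO 1 highest and control 1 lowest of the 8. Its log2 fold change was 0.38 (SE 0.13, edgeR adjusted p = 0.0433). The call was lost without double KO 1 (0.29, adjusted p = 0.12) and without control 1 (0.26, adjusted p = 0.107), and also without double KO 3, double KO 4 or control 4 (0.41, 0.40 and 0.38, adjusted p = 0.0606, 0.0634 and 0.0768 in edgeR). With all libraries that stand apart left out it was 0.18 (edgeR adjusted p = 0.234). With the replicate number as a block, edgeR gave Atg7 an adjusted p of 0.0573.

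Of the cargo receptors, Sqstm1 rose. It stood at 903, 553, 624 and 604 CPM in double KO gastrocnemius and at 468, 547, 527 and 526 in control. The lowest double KO library was just above the highest control, and double KO 1 was far above the other libraries. The log2 fold change was 0.38 (SE 0.11, edgeR adjusted p = 0.0271) with it and 0.20 (edgeR adjusted p = 0.0457) without it. Without control 1 the call was lost (0.32, edgeR adjusted p = 0.0677), as it was without all libraries that stand apart (0.15, adjusted p = 0.0582). Nbr1, the other cargo receptor, had a log2 fold change of 0.20 (SE 0.078, edgeR adjusted p = 0.0871).

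Among the cathepsins, the proteases of the lysosome, Ctsl and Ctsb rose and Ctsd and Ctsz did not pass the threshold. Ctsl stood at 209, 86.8, 82.7 and 83.3 CPM in double KO and at 70.5, 71.2, 70 and 68.2 in control. Every double KO library was above every control, double KO 1 by a wide margin and the other 3 by a small one. With all libraries the log2 fold change was 0.72 (SE 0.22, edgeR adjusted p = 0.0266). Without double KO 1 it was 0.27 with a smaller spread (edgeR adjusted p = 0.00538). The Ctsl call was lost without control 2, 3 or 4 (0.73, 0.72 and 0.71, edgeR adjusted p = 0.0514, 0.0519 and 0.0566). For Ctsb the values were 281, 222, 243 and 241 CPM in double KO and 180, 211, 208 and 233 in control. Double KO 2 lay inside the control range. Its log2 fold change of 0.25 (SE 0.086, edgeR adjusted p = 0.0498) was just inside the threshold and was called under 3 of 14 alternatives. Without double KO 1 it was 0.18 (edgeR adjusted p = 0.132), without control 1 it was 0.17 (edgeR adjusted p = 0.129), and without all libraries that stand apart it was 0.11 (edgeR adjusted p = 0.253). The Ctsb call was also lost without double KO 3 or 4 (0.26 each, edgeR adjusted p = 0.0852 and 0.078), without control 2 or 3 (0.25 each, edgeR adjusted p = 0.0818 and 0.0841) and with the replicate block (edgeR adjusted p = 0.0598).

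Macrophages hold cathepsins too. All 12 macrophage markers checked had counts in every group, and their summed level ran from 87.2 to 161 CPM in double KO gastrocnemius and from 64.2 to 76.4 in control, without overlap. Double KO 1 held the highest sum. In double KO against control gastrocnemius 11.4% of all genes rose and 9.59% fell. Of 11 macrophage markers tested 6 rose and none fell, while 8 of 12 myofibre markers fell and 1 rose. Also lower were 3 of 6 endothelial, 3 of 6 adipocyte and 5 of 5 erythroid markers. The summed Schwann markers ran from 18.9 to 22.1 CPM in double KO and from 23.9 to 40.9 in control. Sums of fibroblast, satellite and neutrophil markers overlapped those of control. The part of these cell types in the rise of Ctsl, Ctsb and Sqstm1 was not tested.

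Bnip3, an outer-membrane receptor for mitophagy, fell. It stood at 124, 106, 95.9 and 95.4 CPM in double KO gastrocnemius and at 181, 135, 146 and 128 in control. All double KO libraries were below all controls, with control 1 well above the other 3. The fall was 28.6% (log2 fold change -0.49, SE 0.12, edgeR adjusted p = 0.00754), and it passed under all 14 alternatives, control 1 left out included (-0.38, edgeR adjusted p = 0.0185). Pink1 had a log2 fold change of -0.23 (edgeR adjusted p = 0.0772), and without control 1 it was called (-0.31, edgeR adjusted p = 0.00652). Bnip3l had 0.07 (edgeR adjusted p = 0.668).

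Ulk1, the kinase that starts autophagy, fell from 88.5, 106, 100.2 and 116 CPM in control gastrocnemius to 103, 61.9, 65.2 and 70.2 in double KO. Double KO 2, 3 and 4 were below all controls, and double KO 1 lay within the control range. The log2 fold change was -0.45 (SE 0.13, edgeR adjusted p = 0.0217) and reached -0.64 without double KO 1 (edgeR adjusted p = 0.000157). Ulk1 missed the threshold when double KO 2, 3, 4 or control 4 was removed (-0.37, -0.39, -0.42 and -0.39, edgeR adjusted p = 0.069, 0.0762, 0.0614 and 0.0639). All 4 members of the ULK1 complex had a lower mean in double KO, Rb1cc1 by -0.39 (SE 0.17, edgeR adjusted p = 0.123), Atg13 by -0.15 and Ulk2 by -0.14, and of these Ulk1 alone passed. Becn1, the scaffold of the Beclin complex, stood at 51.1, 47.4, 45.6 and 45.5 CPM against 59.8, 52.3, 52.5 and 54.9. The groups were close but did not overlap. Its fall was small, 13.7% (log2 fold change -0.21, SE 0.064, edgeR adjusted p = 0.0274). Becn1 missed it on removal of the same libraries in turn (-0.21, -0.19, -0.19 and -0.21, edgeR adjusted p = 0.0557, 0.0852, 0.0827 and 0.051). Its partner Atg14 had a log2 fold change of 0.19 (edgeR adjusted p = 0.258).

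**Figure D3:**
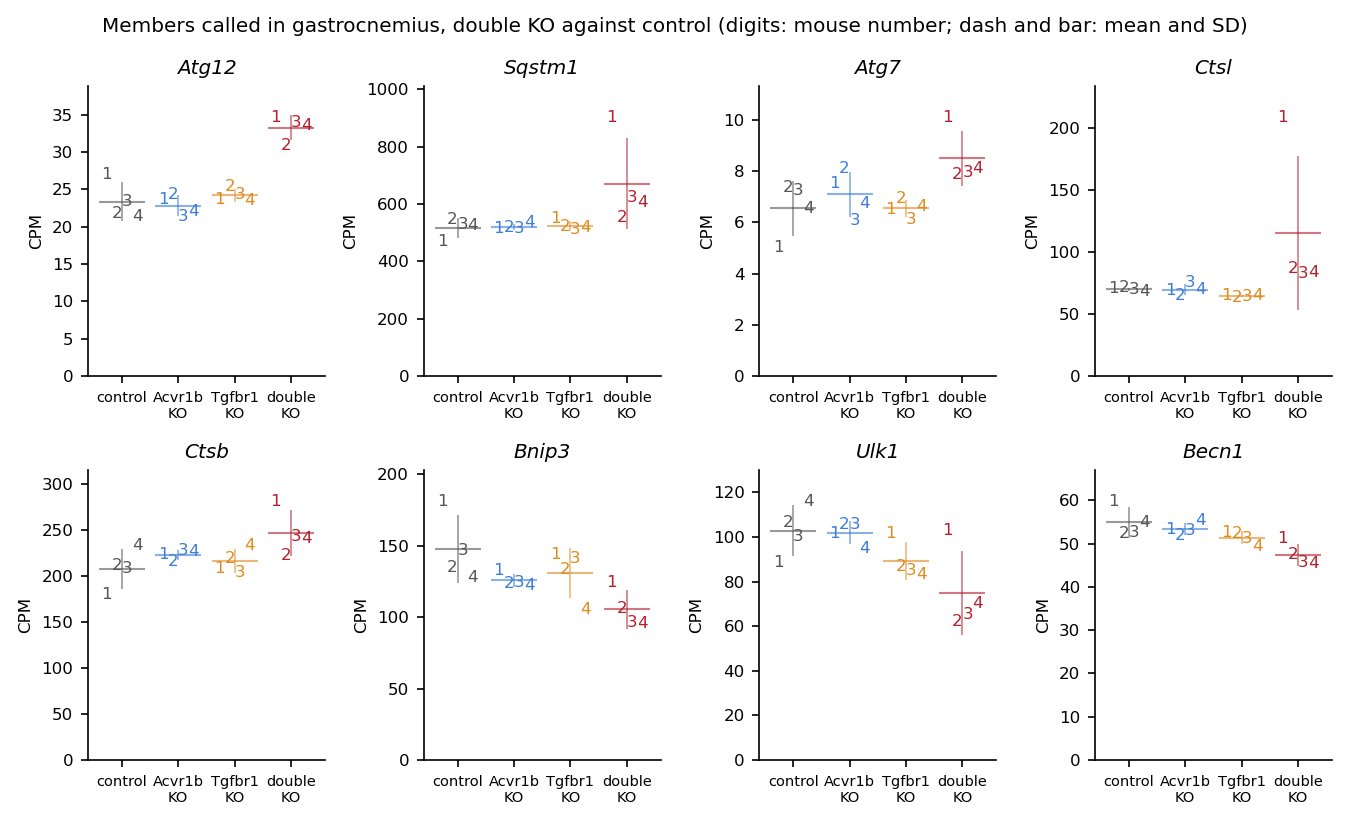
Level in CPM of the 8 members called in gastrocnemius, in the 4 genotypes, each digit being 1 library at its replicate number, with a dash for the mean and a bar for the SD. Atg12 in double KO lies above all other libraries, and double KO 1 lies far above the other double KO libraries for Ctsl and Sqstm1.

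No member of the ATG8 family, the lipid carriers and PI3P effectors, the transcription factors or the lysosomal membrane proteins passed in gastrocnemius. Log2 fold changes ran from -0.10 (Gabarapl1) to 0.36 (Map1lc3a) in the ATG8 family, from -0.17 (Atg9a) to 0.19 (Wipi2) in the lipid group, and from -0.30 to -0.05 for Lamp2 and Lamp1. Tfeb and Tfe3 differed by -0.05 and 0.04. Gabarapl1 stood at 113, 41.0, 43.6 and 51.3 CPM in double KO, so 3 libraries were below all 4 controls and double KO 1 was above them. Without double KO 1 it was called lower, with a log2 fold change of -0.55 (edgeR adjusted p = 0.00213), as was Atg13 (-0.27, edgeR adjusted p = 0.0377). Map1lc3b (LC3B), the marker most often used to follow autophagosomes, stood at 122, 73.6, 81.3 and 80.4 CPM against 76.5, 91.9, 89.6 and 87 in control, with a log2 fold change of 0.05 (edgeR adjusted p = 0.8). Its sign turned with the libraries that stand apart left out (-0.19, edgeR adjusted p = 0.0423). In that fit 11 members were called, 2 higher (Atg12, Ctsl) and 9 lower (Map1lc3b, Gabarapl1, Ulk1, Atg13, Becn1, Atg9a, Bnip3, Pink1 and Ctsd), or 33.3% of the members beside 26.2% of all genes (13.4% higher and 12.8% lower). Gastrocnemius double KO 1 was set apart by its deviation over these same members. Calls gained without it, and their share, are a description only. In double KO gastrocnemius the holders of CACGTG moved both ways, with Ctsl and Atg7 higher, Bnip3 lower and Lamp1, Ctsd, Atg5 and Atg14 not called (-0.05, -0.16, 0.12 and 0.19 on the log2 scale).

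Compared with Acvr1b KO, double KO gastrocnemius differed in 6 members, 3 higher (Sqstm1, Atg12 and Ctsl) and 3 lower (Ulk1, Atg9a and Pink1), or 18.2% of the members beside 16.3% of all genes (9.2% higher and 7.06% lower). Against Tgfbr1 KO it differed in 4 members, all higher (Sqstm1, Atg12, Ctsl and Ctsz), or 12.1% beside 12.9% of all genes (7.44% higher). These comparisons share the double KO libraries with the one against control. Atg12 had log2 fold changes of 0.54 (SE 0.080, edgeR adjusted p = 0.000207) and 0.46 (SE 0.080, edgeR adjusted p = 0.00131). Pink1 stood at 395, 436, 411 and 424 CPM in double KO and at 500.2, 538.5, 544 and 503 in Acvr1b KO. The groups did not overlap (log2 fold change -0.32, SE 0.088, edgeR adjusted p = 0.0178). Without Acvr1b KO 3 the call for Pink1 was lost (-0.30, edgeR adjusted p = 0.0563). In the same comparison Atg9a stood at 51.9, 46.7, 54.0 and 52.3 against 60.5, 71.6, 68 and 66.7 CPM, all double KO libraries being lower. Its log2 fold change was -0.38 (SE 0.12, edgeR adjusted p = 0.0323), and the call held without Acvr1b KO 1 and without double KO 1 and was lost without any other library (edgeR adjusted p from 0.0522 to 0.0911). Ctsl (0.73) missed the threshold on removal of any Acvr1b KO library and was 0.27 without double KO 1 (edgeR adjusted p = 0.0058). Missing it too were Sqstm1 (0.37) on removal of any of these or of double KO 1 (0.19), and Ulk1 (-0.44) on removal of Acvr1b KO 1, 2 or 3 or double KO 2, 3 or 4. Ctsz, a cathepsin, stood at 21.9, 18.01, 20.01 and 18.9 CPM in double KO and at 13.6, 15.9, 17.4 and 17.1 in Tgfbr1 KO. The groups did not overlap (log2 fold change 0.30, SE 0.090, edgeR adjusted p = 0.0384). In the comparison with Tgfbr1 KO, Sqstm1 (0.36) missed it on removal of any Tgfbr1 KO library, of double KO 1 (0.18) or of double KO 3, and Ctsz on removal of double KO 1, 3 or 4 or Tgfbr1 KO 1 or 2. Without the libraries that stand apart Ctsz had 0.18 (edgeR adjusted p = 0.129). Ctsl (0.84) and Atg12 kept this call in every such case, Ctsl at 0.39 without double KO 1 (edgeR adjusted p = 0.000542).

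Whether the effect of losing both receptors departs from the sum of the single effects was tested in the same edgeR fit. In gastrocnemius Atg12 was the only member called, beside 2.14% of all genes (1.48% in its direction). Single loss of Acvr1b gave it a log2 fold change of -0.03 and of Tgfbr1 0.05, the loss of both 0.51, and the departure was 0.49 (SE 0.11, edgeR adjusted p = 0.0313). Leaving out 1 library at a time kept this call in 8 of 16 cases (lost without Acvr1b KO 1, 3 or 4, Tgfbr1 KO 1 or 3, double KO 3 or 4 or control 3), and the departure ran from 0.38 to 0.53 over the alternatives. Without double KO 1 Ctsl was called as well (0.40, edgeR adjusted p = 0.0164), a gain given as a description only. In soleus no member and no gene was called for such a departure, by edgeR, and 0 members had an unadjusted p under 0.05.

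In soleus, loss of both receptors changed no member by edgeR's test, where 0.722% of all genes were called. At an unadjusted p under 0.05 there were 5 members, beside 12.2% of all genes. DESeq2 called 2, Atg13 (adjusted p = 0.0425) and Pink1 (adjusted p = 0.00898), beside 1.91% of the genes given an adjusted p. DESeq2 gave no adjusted p for Sqstm1 and Ctsl there. Pink1 stood at 570.1, 651, 673 and 654 CPM in double KO soleus and at 738, 806, 877 and 800.5 in control. All double KO libraries were below all controls (log2 fold change -0.34, SE 0.096, edgeR adjusted p = 0.13). Atg13 stood at 62.5, 54.1, 60.5 and 65.7 CPM against 69.7, 83.6, 77.9 and 82.1, again without overlap (log2 fold change -0.37, SE 0.10, edgeR adjusted p = 0.115). Groups did not overlap for 7.71% of all genes and for 4 members, the other two being Bnip3 (lower, -0.31, edgeR adjusted p = 0.338) and Atg12 (higher, 0.28, edgeR adjusted p = 0.301). Against Acvr1b KO and against Tgfbr1 KO, double KO soleus also had 0 called members in edgeR, beside 0.127% and 0.0496% of all genes. There were 5 members with an unadjusted p under 0.05 in each, beside 11.2% and 9.13% of all genes. DESeq2 called 1 and 0, which is not read as a change in the members.

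The largest mean differences in soleus came from 1 mouse. Ctsl stood at 715, 107, 107 and 107 CPM in double KO soleus and at 129, 116, 124 and 124 in control. Double KO 1 was far above all other soleus libraries, and the other 3 lay below every control. The log2 fold change was 1.08 (SE 0.48, edgeR adjusted p = 0.372) with that library and -0.20 (edgeR adjusted p = 0.145) without it. Sqstm1 stood at 1993, 353, 423 and 452 CPM against 429, 478, 513 and 465. Again double KO 1 was the highest, and the other 3 overlapped the controls or lay below them (log2 fold change 0.77, SE 0.40, edgeR adjusted p = 0.466, and -0.21, edgeR adjusted p = 0.42, without it). Gabarapl1 had -0.22 with that library and -0.68 without it (edgeR adjusted p = 0.83 and 0.183).

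**Figure D4:**
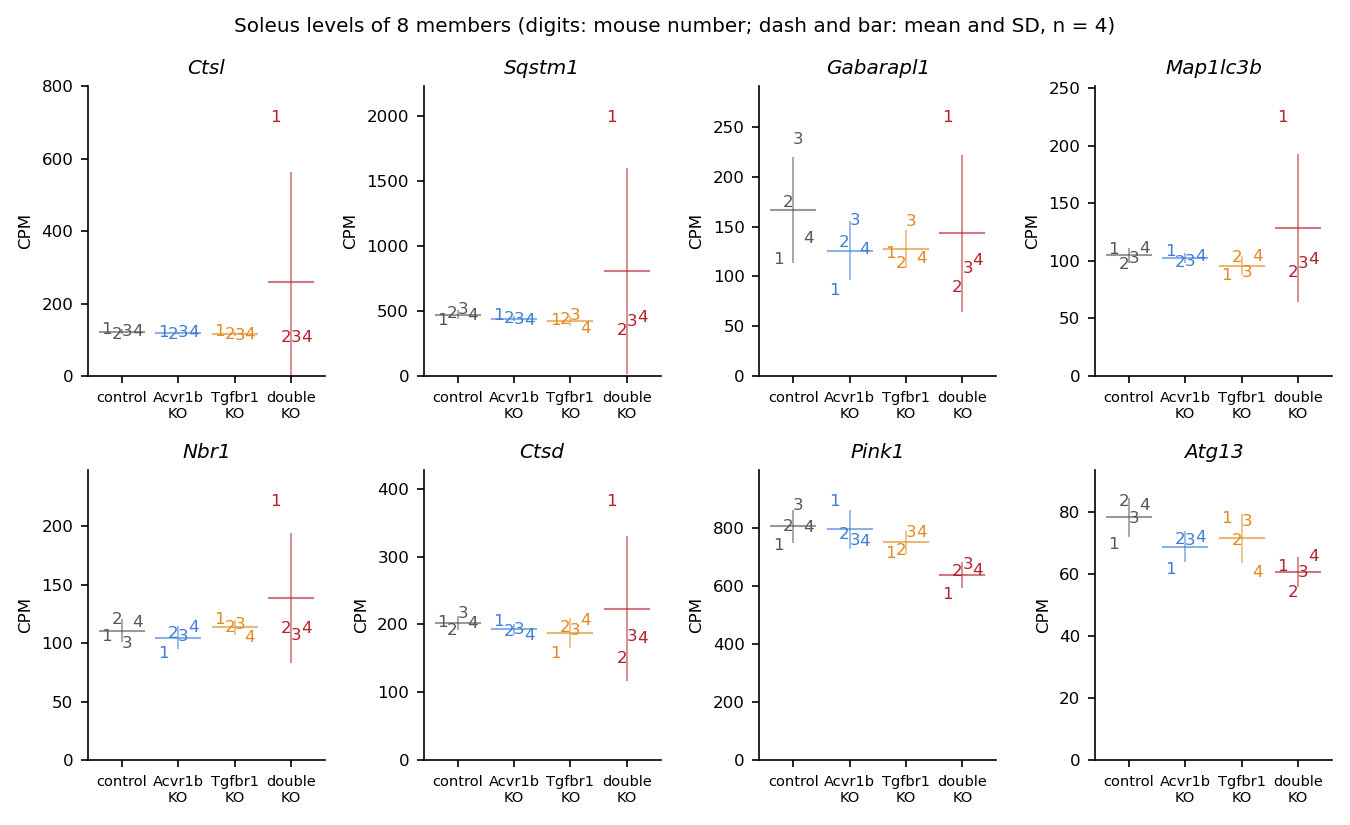
Soleus level in CPM of 8 members in the 4 genotypes, each digit being 1 library at its replicate number, with a dash for the mean and a bar for the SD. Double KO 1 stands far above the other libraries for Ctsl (715), Sqstm1 (1993), Map1lc3b (225), Nbr1 (222) and Ctsd (382), while for Pink1 and Atg13 all double KO libraries lie below the controls.

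The same mouse stood out in both of its muscles. Its library was the highest of the 4 double KO libraries for 25 of 33 members in gastrocnemius and 20 of 33 in soleus, and for 18 members in both. The same was not counted over all genes, so these counts are not read as particular to the members. Its root mean square log2 deviation from its group in soleus was 0.658 over all genes and 0.647 over the members. In gastrocnemius these were 0.374 and 0.340. The shared 18 hold all 5 ATG8 genes, both cargo receptors and all 4 cathepsins. In soleus its level was 2.33 times the mean of the other 3 double KO libraries for Map1lc3b, 2.49 times for Gabarapl1, 4.87 times for Sqstm1 and 6.68 times for Ctsl. In gastrocnemius the same ratios were 1.56, 2.48, 1.52 and 2.48. Its macrophage marker sum was the highest of all 16 soleus libraries at 207 CPM, with 57 to 128 in control, and its myofibre marker sum was the lowest at 60554 CPM, with 86228 to 101582 in control. Its endothelial marker sum was also the lowest of the 16, at 231 CPM, with 307 to 415 in control. Its Schwann sum was 54.1 CPM, with 55.4 to 166 in control. Sums of its fibroblast, adipocyte, satellite, erythroid and neutrophil markers lay within the control range. The part of these cell types in its levels was not tested.

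**Figure D5:**
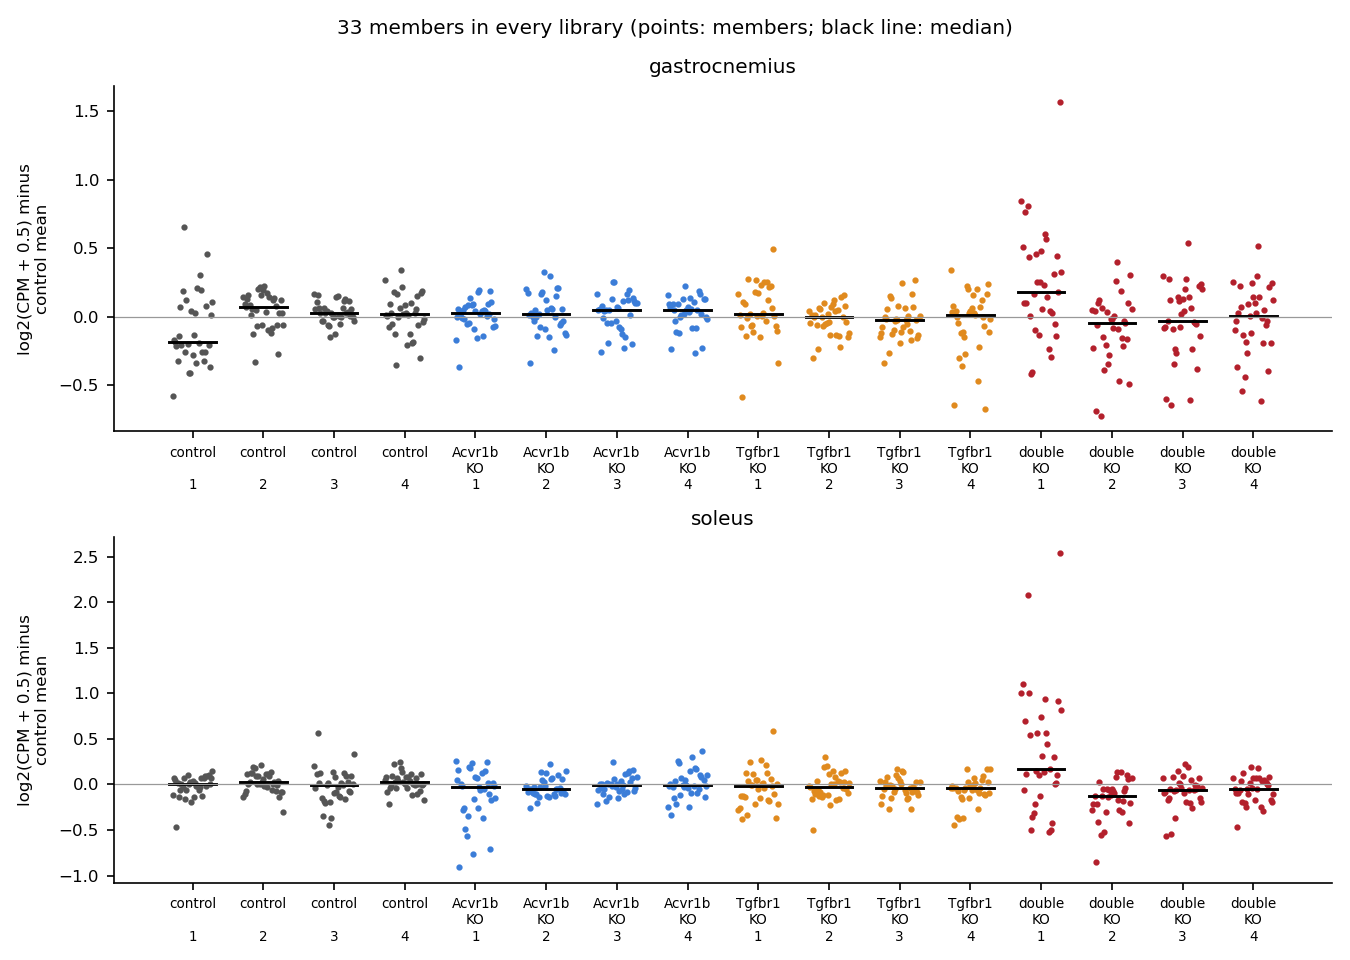
Difference of each member from the control mean of its muscle, on the scale of log2(CPM + 0.5), in all 32 libraries, with each point a member and the black line the median. Double KO 1 has the widest spread and the highest median in both muscles, and gastrocnemius control 1 has the lowest median of its muscle.

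Whether the effect of losing both receptors differed between soleus and gastrocnemius was tested over all 32 libraries. No member passed in edgeR, 0 had an unadjusted p under 0.05, DESeq2 called 0, and 0.732% of all genes were called. Wipi1 had the lowest adjusted p, its log2 effect in soleus minus that in gastrocnemius being -0.22 (SE 0.11) (edgeR adjusted p = 0.582). For Atg12 the effect was 0.51 in gastrocnemius and 0.28 in soleus, a difference of -0.23 (SE 0.12, edgeR adjusted p = 0.64). With both libraries of double KO 1 left out, Ctsl was called with a difference of -0.46 (edgeR adjusted p = 0.00143), since its level was then above control in gastrocnemius and below it in soleus. Without soleus double KO 1 alone the Ctsl difference was -0.90 (edgeR adjusted p = 0.0527), against 0.34 with all libraries. In that fit Sqstm1 was called (-0.57, edgeR adjusted p = 0.0496), where it had 0.38 with all libraries. That fit kept the gastrocnemius library of the same mouse. With both libraries of the mouse left out, or all that stand apart, Sqstm1 was not called. Calls gained in these fits are a description only. For the single knockouts 0 members and 0 genes differed between muscles in edgeR, and 0 members had an unadjusted p under 0.05.

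Genes of the same pathways that are not members were counted from lists set out by function. Of 33 other autophagy genes 3 rose and 4 fell in double KO gastrocnemius (21.2%, beside 20.9% of all genes). Of 17 subunits of the V-ATPase, the pump that acidifies the lysosome, 3 rose and none fell (17.6%). Of 41 other lysosome genes 13 rose and 3 fell, 39.0% beside 20.9% of all genes, with a median log2 fold change of 0.19 against 0.00. Of 23 upstream regulators 1 rose and 5 fell (26.1%). In soleus edgeR called none of the first 3 lists and 1 regulator, Foxo1, beside 0.722% of all genes. With the libraries that stand apart left out, 3 autophagy genes rose and 10 fell in gastrocnemius (39.4%), where 26.2% of all genes were called. Without control 1 alone 5 rose and 9 fell (42.4%, beside 21.8% of all genes). Without double KO 1 alone 4 rose and 7 fell (33.3%, beside 20.8%). Of the lysosome genes 10 rose and 4 fell without the libraries that stand apart (34.1%, beside 26.2% of all genes), and their median was 0.06. Leaving out double KO 3 or double KO 4 gave 8 that rose and 2 that fell, 24.4% beside 15% and 16.5% of all genes. A fit of only the groups compared gave 4 and 1, or 12.2%, below the 13.7% of all genes called in it.

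The autophagy genes that rose were Tecpr1 (0.75), which acts in fusion with the lysosome, Plekhm1 (0.37), a fusion adaptor, and Tmem41b (0.31), a lipid scramblase. Those that fell were the mitophagy receptor Optn (-0.72), Nrbf2 (-0.67) of the Beclin complex, the SNARE Vamp8 (-0.51) and Atg101 (-0.46) of the ULK1 complex. Rising V-ATPase subunits were Atp6v1a (0.99), Atp6v0e (0.47) and Atp6v1g1 (0.40). The lysosome genes with the largest rise were the cathepsin Ctss (1.14, SE 0.19, edgeR adjusted p = 0.000388), the protease Lgmn (0.72) and the sulfatase Arsb (0.55), and those that fell were the cholesterol transporter Npc1 (-1.08, SE 0.18, edgeR adjusted p = 0.000392), the lipase Lipa (-0.35) and the peptidase Tpp1 (-0.30). Ctss is known as a protease of macrophages, and the part of macrophage markers in its rise was not tested. With the libraries that stand apart left out, Plekhm1 (0.23, edgeR adjusted p = 0.0723) and Atp6v0e (0.24, edgeR adjusted p = 0.109) were not called, and Tecpr1 was called at 0.48. Atp6v0e also missed the threshold without double KO 1 (0.29) or without control 1, 2 or 4. Tmem41b missed it without double KO 2, 3 or 4 or control 2 or 4, and Lipa without any 1 of the 8 libraries but double KO 1.

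Of the regulators, Foxo1 fell in both muscles. Its mean was 72.7 ± 29.7 CPM in double KO and 174 ± 6.41 in control gastrocnemius (SD, n = 4 each; log2 fold change -1.26, SE 0.22, edgeR adjusted p = 0.000741). In soleus it was 62.5 ± 10.4 and 125 ± 20.9 CPM (log2 fold change -1.0, SE 0.16, edgeR adjusted p = 0.00896), and a fit of only the groups compared did not call Foxo1 there (edgeR adjusted p = 0.0595). Foxo4 (-0.52) and Foxo3 (-0.43) fell in gastrocnemius, with Fnip1 (-0.71), a partner of folliculin, and Rragb (-1.29), a Rag GTPase of the lysosome that is near the detection floor at 1.32 CPM in control. Prkaa1, a catalytic subunit of AMPK, rose (0.44). Fnip1 was not called without control 1 (-0.43, edgeR adjusted p = 0.066), without double KO 1 (-0.64, edgeR adjusted p = 0.0541) or without all libraries that stand apart (-0.35, edgeR adjusted p = 0.129). The Foxo3 call was lost without double KO 3 (-0.37, edgeR adjusted p = 0.0561), and that of Prkaa1 without any 1 of the double KO libraries or of controls 2, 3 and 4. Foxo3, Rragb and Atg101 are outside the rule for named genes and were named after their values were seen.

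Reads that aligned to several places were shared between them as fractions, so members with near-identical copies elsewhere are less certain. Map1lc3b, Wipi2, Bnip3 and Ctsl had fractional counts in all 32 libraries, Gabarapl2 and Atg16l1 in 31, Bnip3l in 25, Atg4b in 23, Sqstm1 in 21, Atg2a in 19, Gabarap and Ulk1 in 17, and Rb1cc1, Lamp1 and Lamp2 in 16. Atg12 had them in 7 and Atg7 in 0. Depth did not limit the members, whose lowest count in any library was 107, for Atg7 in gastrocnemius Tgfbr1 KO 1.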

How the data were processed

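PolyA RNA of 32 muscle libraries from 16 mice was sequenced. The single table holds estimated counts per gene, deposited by the authors and made with featureCounts 2.0.1 on GRCm38 with Ensembl 102 genes, reverse-stranded (setting 2), with multi-mapping reads shared as fractions, per the file headers. The submitters' processing notes also name DESeq2, FastQC 0.11.9, HISAT2 and cutadapt. Groups came from the tissue and genotype labels. Symbols came from GENCODE M21 (55141 of 55487 identifiers matched).

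Here the estimated counts were rounded and fitted per muscle with edgeR 4.0.16 (R 4.3.3, limma 3.58.1; filterByExpr with a minimum count of 10, TMM scaling, robust quasi-likelihood test, 2-sided), with 1 mean per genotype and Benjamini-Hochberg adjustment over all genes tested at 0.05. Comparisons between muscles used 1 fit over all 32 libraries. CPM are counts scaled to library size by TMM within a muscle, and CPM per kilobase is over both muscles and divided by the deposited exon length. The steps were tested on counts simulated from the fitted spread. No simulated mouse was set apart from its group, so that case was not tested. Replicates are separate mice. Members and lists were chosen with earlier results of these data known. All 33 members may be named. Every library's value is given for members called in a knockout against control, and of each pathway list up to 3 rising and 3 falling genes with at least 5 CPM were named by size. The alternatives were DESeq2 1.42.0, RLE size factors, no filter on low counts, a replicate block, only the groups compared, each library left out in turn, and, chosen after seeing the data, the 5 libraries that stand apart left out and both libraries of double KO mouse 1 left out. The same fits were read for the pathway lists, also chosen after seeing the data. Gastrocnemius double KO 1 was set apart by its deviation over the members themselves. Leaving it out lowers the members' spread by that choice, so member calls gained in such fits are a description only. Within a muscle, replicate numbers join no animals, and in 0 of 12 pairings of genotypes did all 4 correlations of same-numbered libraries exceed 0.1 (range -0.26 to 0.30). Between muscles the number marks 1 mouse, per the labels, and all 4 correlations exceeded 0.1 in 2 of 4 genotypes (range 0.034 to 0.58).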

Additional observations from a re-analysis of the deposited data

Results flagged for a closer look

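In 27 of 264 sets of 4 libraries (33 members in 8 groups), 1 library lay far from the other 3, its gap to the nearest being most of the range. For independent sets of normally spread values chance would flag about 1 in 20. The 33 members share libraries, so the sets are not independent and the count is not weighed against that rate. The rate over all genes was not counted. Soleus double KO 1 accounted for 9, all high: Ctsl at 715 CPM (the others at most 107), Sqstm1 at 1993, Ctsd at 382, Gabarapl1 at 260.04, Map1lc3b at 225, Nbr1 at 222, Wipi2 at 61.7, Ctsz at 31.4 and Atg12 at 28.6. Gastrocnemius double KO 1, from the same mouse, accounted for 6, all high: Ctsl at 209, Nbr1 at 139, Map1lc3b at 122, Gabarapl1 at 113, Atg7 at 10.1 and Tfe3 at 9.65 CPM. Ctsl, Nbr1, Map1lc3b and Gabarapl1 are on both lists.

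Soleus Acvr1b KO 1 was low for Wipi1 (99.1 CPM), Atg13 (61.4) and Atg9a (24.03). Gastrocnemius Acvr1b KO 1 was low for Map1lc3a (70.8) and Atg4b (15.4). Single cases were Lamp1 low in gastrocnemius Acvr1b KO 2 (366), Sqstm1 high in gastrocnemius Acvr1b KO 4 (535), Atg16l1 low in gastrocnemius double KO 2 (16.5), Ctsl low in soleus Acvr1b KO 2 (114) and Lamp2 high in soleus Tgfbr1 KO 1 (119 CPM). In soleus control 4, Gabarapl2 was low (33.1) and Atg7 high (10.16 CPM).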

How the results depend on the processing

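Counts of called members moved as follows, with edgeR unless named. Leaving out 1 library at a time gave 4 to 8 in double KO against control in gastrocnemius (8 with all), 1 to 7 against Acvr1b KO (6), 2 to 5 against Tgfbr1 KO (4), 0 to 2 for the departure from additivity (1), 13 to 15 between control muscles (14) and 0 to 1 for the difference of the double KO effect between muscles (0). Over all genes the same fits called 2651 to 3872, 2050 to 2942, 1521 to 2095, 232 to 548, 6439 to 7268 and 72 to 337. With no filter on low counts there were 4 against control, beside 9.83% of all genes, 1 against Tgfbr1 KO and 0 for the departure. A fit of only the groups compared gave 2, 3 and 1 against control, Acvr1b KO and Tgfbr1 KO. It called 13.7% of all genes against control. With the libraries that stand apart left out there were 12 against Acvr1b KO, 2 for the departure and 1 in Tgfbr1 KO against control. In double KO against control in soleus there were then 2, beside 2.73% of all genes. For the difference of the double KO effect between muscles there were 2, and 1 with both libraries of double KO mouse 1 left out. In soleus DESeq2 called 2 against control, beside 1.91% of the genes given an adjusted p, and 1 against Acvr1b KO. Counts in this section without a share of all genes beside them are not read as changes in the members. Among single members 6713 values stayed on their side of the threshold (528 of them turned sign without being called), 96 lost a call and 26 gained one. In 4 the sign turned with a call gained: Map1lc3b in double KO against control in gastrocnemius (-0.19, apart libraries left out), Sqstm1 in the difference of the double KO effect between muscles (0.38 with all libraries, and from -0.57 without soleus double KO 1 to 0.62 without soleus double KO 2) and Ctsl in the same difference (-0.45 and -0.46, apart libraries or both libraries of double KO mouse 1 left out; -0.90 without soleus double KO 1, not called). The causes were not tested beyond the libraries named. With the replicate number as a block 6 members were called in double KO against control in gastrocnemius, beside 20.7% of all genes. Atg7 and Ctsb lost the call. Sqstm1 lost its calls against both single knockouts with this block. With the mouse as a block 16 members differed between control muscles.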
